A study of Mus musculus with 6 samples.

Results

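The AP-1 family genes Fos, Fosb, Fosl1, Fosl2, Jun, Junb, Jund and Atf3 were followed in newly made RNA of mouse cells that lost ASH2L, a core subunit of the KMT2 (COMPASS) complexes that methylate histone H3 at lysine 4. The 8 genes were chosen by symbol, as short-lived transcripts that can report fast changes in transcription. Their values were not part of this rule, but earlier results of these data were known at the time. They are 8 of the 55401 genes in each deposited table. The cells were iMEF cells, immortalised mouse embryo fibroblasts in which a conditional exon of both endogenous Ash2l alleles had been deleted with a Cre-ER fusion under the CAGG promoter and which grew on FKBP-HA2-ASH2L, the human protein with a tag, encoded by a lentivirus. All 6 samples shared this genotype. The groups were 2 untreated samples, 2 samples treated with dTAG-13 for 4 h and 2 treated for 8 h. dTAG-13 brings a ubiquitin ligase to the FKBP tag, and the fusion protein is then degraded. Cells took up an ethynyl-modified nucleoside, and labelled RNA was captured by Click-iT chemistry and sequenced. In treated cells the label was given in a window around 4 h or 8 h, and not from the start of treatment. A response that began and ended before such a window would not appear in these values. The clone is not named for this experiment, and separate cultures for the 2 samples of a group are not stated, so the error behind each p-value may be technical, as it comes from these samples alone.

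AP-1 is a dimeric transcription factor of basic leucine zipper (bZIP) proteins. FOS proteins cannot pair with each other and bind DNA with a JUN partner, whereas JUN proteins can also pair among themselves, and ATF3 pairs with JUN proteins and other bZIP factors. Fos, Fosb, Jun, Junb and Atf3 are immediate early genes: in fibroblasts their transcription starts within minutes of serum or stress without new protein synthesis, and their RNAs decay fast. MAP kinases, serum response factor with its ETS partners and factors of the CREB/ATF family drive this response, and AP-1 itself can bind the Jun promoter.

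Because CREB/ATF and AP-1 proteins act through short elements near the start sites, promoters from RefSeq (GRCm38.p6) were searched from 250 bases before to 50 bases after the start, for 7 of the 8 members. Those of Fos, Jun and Atf3, which held such letters, are shown, with the match in capitals. The Fos promoter, chr12:85473640-85473939 on the plus strand, held TGACGT, the core of a cyclic AMP response element, from 66 bases before the start. The Jun promoter, chr4:95052173-95052472 on the minus strand, held TGACATCA, a variant of the AP-1 element, from 45 bases before the start. The Atf3 promoter, chr1:191183284-191183583 on the minus strand, held TTACGTCA, which contains TGACGT on the other strand, from 10 bases before the start.
Fos: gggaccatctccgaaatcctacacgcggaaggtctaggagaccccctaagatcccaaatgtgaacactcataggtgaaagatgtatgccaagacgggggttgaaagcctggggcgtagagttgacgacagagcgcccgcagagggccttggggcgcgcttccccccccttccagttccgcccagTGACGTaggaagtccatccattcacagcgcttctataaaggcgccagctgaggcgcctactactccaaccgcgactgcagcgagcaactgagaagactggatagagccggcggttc
Jun: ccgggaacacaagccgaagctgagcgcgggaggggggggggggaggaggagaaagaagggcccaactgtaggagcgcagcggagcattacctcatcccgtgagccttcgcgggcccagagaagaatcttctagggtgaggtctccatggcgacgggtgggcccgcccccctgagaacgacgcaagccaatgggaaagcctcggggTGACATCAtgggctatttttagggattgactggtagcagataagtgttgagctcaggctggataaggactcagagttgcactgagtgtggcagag
Atf3: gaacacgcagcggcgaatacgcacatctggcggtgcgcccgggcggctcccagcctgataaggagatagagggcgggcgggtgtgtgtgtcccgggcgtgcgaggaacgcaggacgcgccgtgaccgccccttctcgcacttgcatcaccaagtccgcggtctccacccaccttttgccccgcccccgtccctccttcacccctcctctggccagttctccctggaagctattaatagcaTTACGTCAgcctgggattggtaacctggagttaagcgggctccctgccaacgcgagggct
Searched on both strands in 32851 RefSeq promoters of this length, TGACGT was found in 7.51%, TGACATCA in 3.62% and TTACGTCA in 0.499%. The AP-1 element TGACTCA (5.20% of all promoters) and the full response element TGACGTCA (1.79%), which contains TGACGT, were in none of the 7 windows. TATAAA was found in the Fos and Junb windows and in 13.6% of all, and the CArG box of serum response factor in none of the 7 and 1.63% of all. The RefSeq start of Jund lies upstream of the GENCODE M21 start used for its coordinates, so that its window, chr8:70697489-70697788, does not reach the latter start. The windows of Fosl2 (chr5:32136222-32136521) and Atf3 lie downstream of the GENCODE M21 starts, chr5:32135801 and chr1:191218039, and do not reach them either. The Atf3 sequence shown is thus that of a RefSeq start inside the gene. A match describes letters and not a bound site, and these windows leave out elements farther upstream.

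The deposited tables give 1 mean per gene over the 4 libraries of a comparison. Values for each library were recovered here as the whole numbers whose scaled sums give the deposited means of both tables, and they are given as normalised counts in the scaling of the table concerned. The 2 libraries of a group are called A and B, because the means do not carry the sample numbers. Over the genes with a single solution they summed to 10585575 and 7510750 in untreated libraries A and B, 17916026 and 12353560 at 4 h and 25184693 and 17689981 at 8 h. These sums are not read totals and do not give the order of depth, since the numbers of 4 of the 6 libraries left out some whole numbers. Of the fibroblast markers 12 of 12 had means of at least 100 in both tables, from 551 (Lum) to 119852 (Fn1). Markers of other cell types were also measured, with means of at least 100 in both tables for 3 of 3 endothelial (Pecam1 5245 and Cdh5 2377 in the 4 h table), 3 of 4 epithelial (Krt18 414, Epcam 261, Cdh1 194) and 1 of 3 haematopoietic markers (Lyz2 1318, against 74.6 for Cd68 and 7.37 for Ptprc). Of the pluripotent markers, Pou5f1 and Sox2 were at 0 and Nanog was at 4.41. None of the 25 markers passed q below 0.05. Fewer cells of a type and less RNA per cell cannot be told apart in such bulk samples.

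Junb, Jun, Fos and Fosl2 held most of the normalised counts that were assigned to AP-1 genes. Undivided, the mean normalised count in the 4 h table was 3936 for Fosl2, 1807 for Jun, 1509 for Junb and 1149 for Fos. Division by exon length suits reads from whole transcripts and not those of a 3′ kit, and since the kit was not settled the order of these genes depends on it. Per kilobase of exon, the mean normalised count in the 4 h table was 656 for Junb, 567 for Jun, 489 for Fos and 407 for Fosl2, against 86.4 for Atf3, 7.77 for Fosb and 4.52 for Jund. The order was the same in the 8 h table, with 844 for Junb, 594 for Jun, 559 for Fos, 480 for Fosl2, 88.9 for Atf3, 9.06 for Fosb and 7.81 for Jund. Neighbours among the first 4 were not separated by the spread of their libraries. In the 4 h table the libraries spanned 614 to 692 per kilobase for Junb, 474 to 715 for Jun, 406 to 542 for Fos and 379 to 435 for Fosl2. Atf3 lay apart, at 66.4 to 105. Fosb (2.67 to 11.6) and Jund (0 to 8.38) overlapped.

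Fosl1, which encodes FRA-1, was listed at a mean of 0 in both tables, which means 0 in all 6 libraries. If a recovered number of 1 stood for 1 read, a count of 0 would allow up to 3 counts per library. This would be 1.62 to 5.45 normalised counts depending on the library. The limit is approximate, since the recovered numbers are not treated as counts of reads. Jund, a member with broad expression in most tissues, was near this limit. Both genes share much of their exon sequence with a gene on the opposite strand in the GENCODE M21 annotation (GRCm38, or mm10). For Fosl1 (ENSMUSG00000024912, chr19:5447547-5455946, plus strand) 1163 of 2033 exon bases (57.2%) lay in exons of Ccdc85b, which had means of 50.4 and 33.4. For Jund (ENSMUSG00000071076, chr8:70698949-70700616, plus strand) 877 of 1668 exon bases (52.6%) lay in exons of Gm11175, which had a mean of 0 in both tables. A mean of 0 in both tables was found for 460 of 640 protein-coding genes with 50% or more of their exon bases shared (71.9%), for 865 of 5902 with a smaller shared part (14.7%) and for 5033 of 15355 with none (32.8%). Among 167 genes for proteasome subunits, RNA polymerase II, ribosomal proteins and initiation factors, 1 was at 0. Reads in shared bases are often left unassigned when genes are counted without strand, and the strand setting of the counting was not given in the sources used here. The part of the overlap in the low values was not tested, and the values of Fosl1 and Jund are therefore uncertain.

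**Figure D1:**
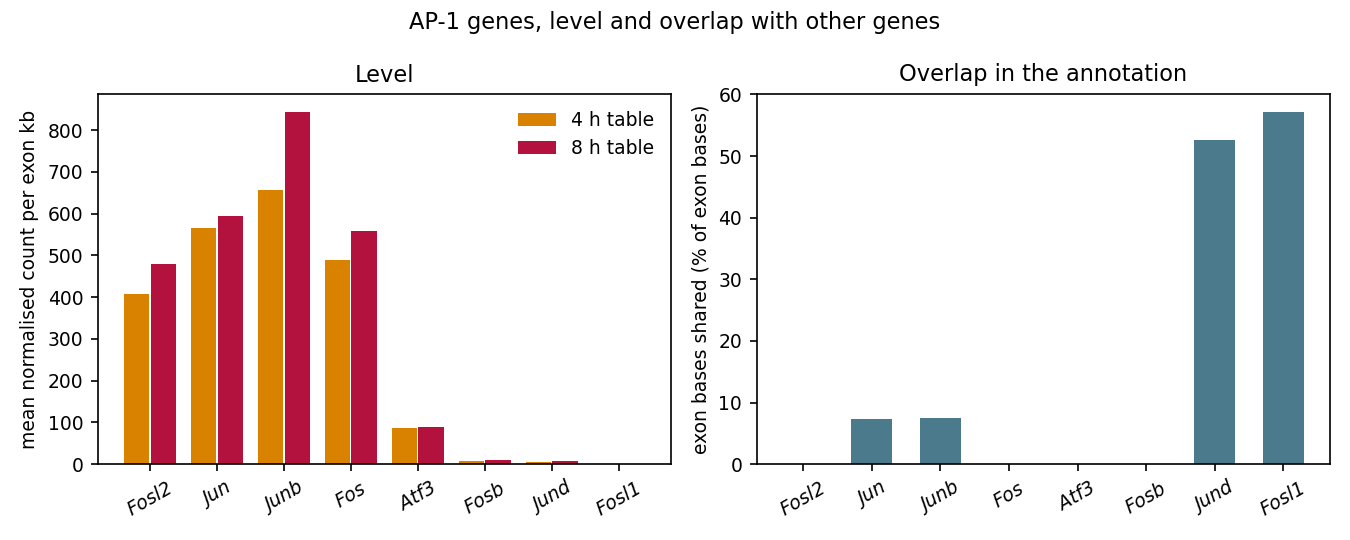
Left, mean normalised count per kilobase of exon (vertical axis, from 0) for each AP-1 gene in the 4 h table (orange) and the 8 h table (red), each bar 1 deposited mean over 4 libraries. Right, the percentage of exon bases that lie in exons of another gene in GENCODE M21. Jund and Fosl1, with 52.6% and 57.2% of bases shared, stand at 4.52 and 0 in the 4 h table.

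The other members were less affected by overlap. Jun (ENSMUSG00000052684, chr4:95049034-95052222, minus strand) shared 7.28% of its exon bases, with Junos at a mean of 0, and Junb (ENSMUSG00000052837, chr8:84974484-84978718, minus strand) shared 7.52%, with Prdx2 at means of 2883 and 3391. Fos (ENSMUSG00000021250, chr12:85473890-85477273, plus strand), Fosb (ENSMUSG00000003545, chr7:19302696-19310051, minus strand), Fosl2 (ENSMUSG00000029135, chr5:32135801-32157842, plus strand) and Atf3 (ENSMUSG00000026628, chr1:191170296-191218039, minus strand) shared 0 bases.

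To find out whether labelled RNA of these fast transcripts differed in the windows around 4 h and 8 h, each time was compared with untreated cells. An earlier, short response to the loss of ASH2L was not tested. At 4 h no AP-1 gene was called: of the 6 with a deposited DESeq2 q-value, 0 were below 0.05, where 0.578% of all genes with a q (88 of 15225) were, and 0 members had an unadjusted p below 0.05, against 10.2% of those genes. At 8 h the count was 0 of 7, against 1.34% of all genes with a q (204 of 15196), and again 0 members had an unadjusted p below 0.05, against 11.8%. A count of 0 among so few genes is near this background and is no result about the members. A second test, limma on the log2 values of the recovered libraries, called 0 of 6 members at either time. It called 0% of 14134 genes at 4 h, at 8 h and between the times, where 598, 698 and 595 genes had an unadjusted p below 0.05. The limma intervals given with each gene show which sizes of change 2 samples per group could not tell from 0.

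Among the FOS genes, labelled Fos RNA stood at 1131 and 1237 normalised counts in the untreated libraries and at 956 and 1274 after 4 h. The treated values lay on both sides of the untreated pair. The deposited log2 fold change, which is shrunken towards 0, was -0.01 (SE 0.06, DESeq2 q = 0.995). In the scaling of the 8 h table, Fos was at 1351 and 1469 in untreated cells and at 1189 and 1248 after 8 h. Both treated libraries were below both untreated ones, with a fold of 0.864 between the means (log2 ratio -0.21), as the only member with a mean of at least 10 whose groups did not overlap. Of all genes with means of 10 or more, 34.1% (5145 of 15090) had both treated libraries outside the untreated pair at 8 h, and 32.5% (4739 of 14572) at 4 h. The deposited log2 fold change of Fos at 8 h was -0.07 (SE 0.10, DESeq2 q = 0.623, unadjusted p = 0.129), the lowest q among the members. The limma estimate was -0.21 on the log2 scale, with a 95% interval from -0.61 to 0.19.

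Fosl2, which encodes FRA-2, a FOS protein whose RNA lasts longer than that of Fos, had the highest normalised counts of the family and the narrowest limma intervals. In the 4 h table it was at 3743 and 4207 in untreated cells and at 4127 and 3665 after treatment, and in the 8 h table at 4474 and 4993 against 4915 and 4202. The groups overlapped at both times. The log2 ratios of the means were -0.03 and -0.05 (DESeq2 q = 0.995 and 0.976), and the limma intervals ran from -0.28 to 0.23 at 4 h and from -0.31 to 0.19 at 8 h.

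Fosb, whose full-length product is close to FOS, was low and varied between libraries. In the 4 h table it was at 37.6 and 67.4 in untreated cells against 72.4 and 16.7, and in the 8 h table at 45.0 and 80.0 against 38.3 and 63.0. The untreated libraries differed 1.79-fold and the 4 h libraries 4.35-fold from each other, and the groups overlapped at both times. The log2 ratios of the means were -0.24 and -0.30 (DESeq2 q = 0.995 and 0.989), and the limma intervals, from -2.67 to 1.64 and from -2.44 to 1.87, hold large changes in either direction.

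**Figure D2:**
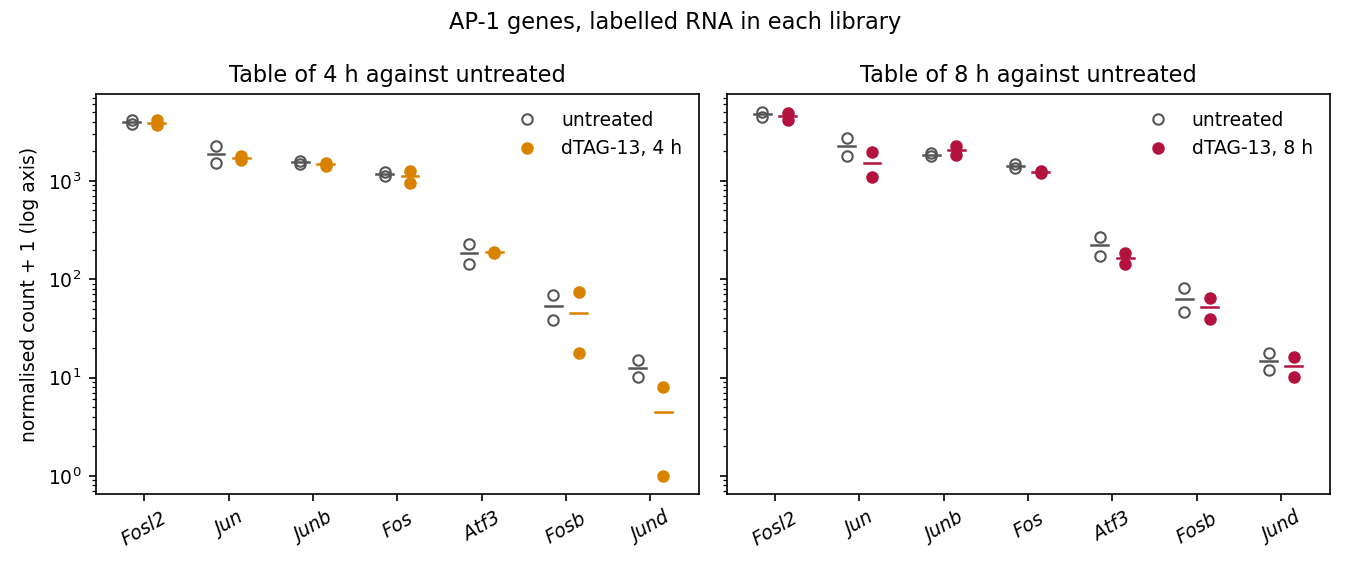
Normalised count plus 1 (vertical log axis) of 7 AP-1 genes in each recovered library of the 4 h table (left) and the 8 h table (right). Open circles are untreated libraries, filled circles dTAG-13 libraries and lines the means of 2 libraries. The groups overlap except for Jund at 4 h, where 1 treated library is at 0, and Fos at 8 h, with 1189 and 1248 below 1351 and 1469.

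Among the JUN genes, Jun, the partner of the FOS proteins and a target of the JNK kinases, was at 1510 and 2280 in the untreated libraries of the 4 h table and at 1640 and 1798 after 4 h. Both treated libraries lay within the untreated pair. The log2 ratio was -0.14 (deposited log2 fold change -0.01, SE 0.06, DESeq2 q = 0.959). In the 8 h table Jun was at 1805 and 2707 in untreated cells and at 1969 and 1101 after 8 h. Library A of the 8 h pair lay within the untreated range and library B was the lowest of the 4. The fold between the means was 0.681 (log2 ratio -0.56), the farthest from 1 among the members with a mean of at least 100, with a deposited log2 fold change of -0.01 (SE 0.08, DESeq2 q = 0.799). The limma estimate was -0.59, with a 95% interval from -1.15 to -0.02 and an unadjusted p of 0.0427, and Jun did not pass the adjustment over all genes (limma adjusted p = 0.923). Jun differed 1.79-fold between the 8 h libraries, and 1.51-fold between the untreated libraries in the 4 h table. Without the lower 8 h library the log2 ratio was -0.20, and without the higher one it was -1.03.

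Junb, which can limit the activity of JUN, had the closest untreated libraries of the family. It was at 1593 and 1496 in untreated cells against 1413 and 1534 after 4 h, and, in the scaling of the 8 h table, at 1904 and 1776 against 2251 and 1840 after 8 h. The groups overlapped at both times. The log2 ratio was -0.07 at 4 h (DESeq2 q = 0.989) and 0.15 at 8 h (DESeq2 q = 0.813), and the limma intervals ran from -0.40 to 0.26 and from -0.18 to 0.47. Jund was at 14.0 and 9.19 in untreated cells and at 6.99 and 0 after 4 h. Its mean of 7.54 was below the lowest mean with a deposited q in that table, 8.16, and it has an unadjusted DESeq2 p of 0.526 only. In the 8 h table Jund was at 16.7 and 10.9 against 9.17 and 15.4, which overlap (DESeq2 q = 0.999).

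Atf3, a stress-induced bZIP gene of the ATF/CREB branch that often acts as a repressor, was at 143 and 227 in untreated cells and at 185 and 190 after 4 h. The treated libraries lay within the untreated pair (log2 ratio 0.02, DESeq2 q = 0.998). In the 8 h table it was at 171 and 269 against 141 and 185, which overlap. The log2 ratio at 8 h was -0.43 (DESeq2 q = 0.823), and the limma interval ran from -1.38 to 0.57. Leaving out 1 library moved this ratio to between -0.72 (without untreated library A) and -0.07 (without untreated library B). The untreated libraries alone differed 1.59-fold in Atf3 in the 4 h table. Fos, Fosb, Fosl2, Jun and Atf3 were each higher in untreated library B, the one with the lower sum, and Junb and Jund in library A.

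**Figure D3:**
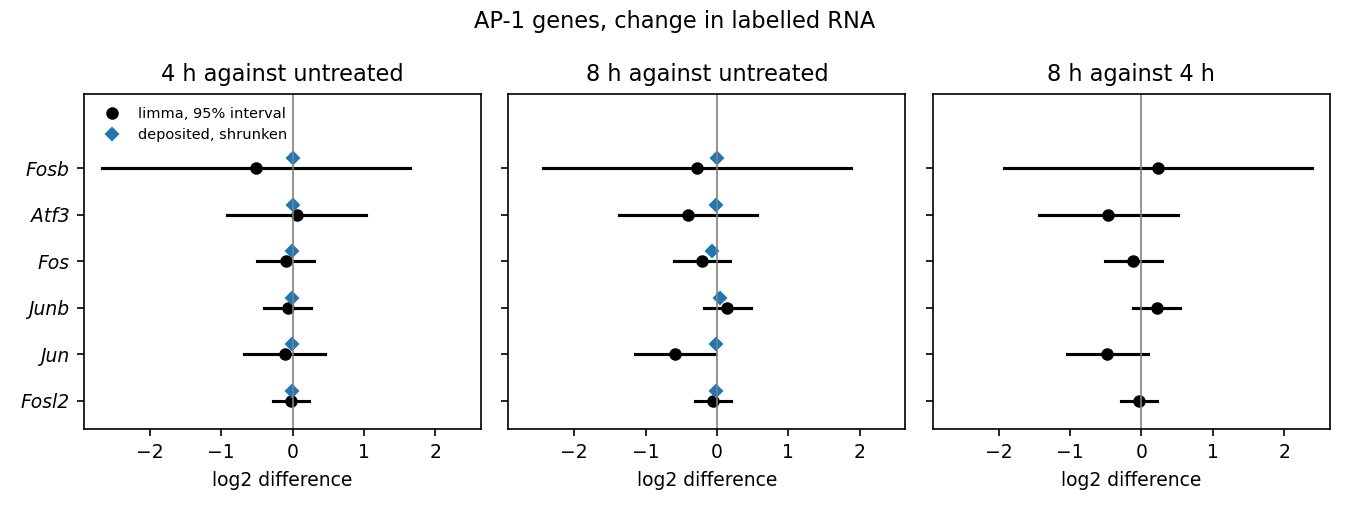
Log2 difference (horizontal axis) of 6 AP-1 genes for 4 h against untreated, 8 h against untreated and 8 h against 4 h. Circles with lines are limma estimates from the recovered libraries with 95% intervals, and diamonds are the deposited shrunken log2 fold changes. Each interval includes 0 except that of Jun at 8 h, from -1.15 to -0.02, whose adjusted p was 0.923.

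The 2 times were also compared with each other. Both tables share the untreated libraries, so their values are set side by side and the difference was tested. From the deposited p-values, expressed as normal quantiles z with the sign of the fold change, 0 of 6 members differed between 8 h and 4 h (normal test of the difference in z, adjusted p = 0.9997 for each). Over all genes this test called 0% of 14530, and 365 had an unadjusted p below 0.05. The test adds both variances as if the tables were independent, and since they share the untreated pair this variance is too large. With the variance halved, 48 genes and 0 members were called, and the lowest adjusted p of a member was 0.650, for Junb. In limma the estimate of 8 h against 4 h was -0.48 for Jun (95% interval -1.04 to 0.09), 0.21 for Junb (-0.12 to 0.54) and -0.11 for Fos (-0.51 to 0.28). The scaling matters for any statement on direction. Without size factors the median over 9390 genes stood at a log2 ratio of 0.74 at 4 h and 1.24 at 8 h. Fos itself then stood at 0.63 and 1.04, Jun at 0.64 and 0.81 and Junb at 0.66 and 1.42, all higher after treatment. Jund was lower at 4 h (-0.79). Whether differences in depth remain in such ratios was not settled, because the recovered numbers are not read totals. Relative to the median, Fos was at -0.11 and -0.20, Jun at -0.10 and -0.43 and Junb at -0.08 and 0.17.

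Genes that act with or on AP-1 were read from 4 further lists, leaving out genes with means under 10. Of the bZIP partners, 1 of 26 was called at 4 h, Atf6, and 0 of 27 at 8 h, with an unadjusted p below 0.05 for 3 and 4 genes. Over all genes with a q, 0.578% and 1.34% were called and 10.2% and 11.8% had such a p, so counts of this size in a list are near the background. Atf6, an endoplasmic reticulum stress sensor whose cleaved form is a bZIP factor, rose from 1313 and 1268 to 1884 and 1754 after 4 h, so both treated libraries were above both untreated ones. The fold between the means was 1.41 (deposited log2 fold change 0.43, SE 0.13, DESeq2 q = 0.0222). At 8 h it was at 1570 and 1505 against 2071 and 1368 (DESeq2 q = 0.900). The lowest p of this list at 8 h was that of Atf4, the effector of the integrated stress response, at 4129 and 4152 against 4903 and 4847 (DESeq2 q = 0.0854).

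Of the upstream kinases and promoter factors, 1 of 30 was called at 4 h, Map2k1, and 0 of 29 at 8 h, with an unadjusted p below 0.05 for 5 and 3 genes, where 10.2% and 11.8% of all genes had one. Map2k1 encodes MEK1, which activates the ERK kinases upstream of Fos. Its labelled RNA fell from 2523 and 2568 to 1968 and 1711 after 4 h, with both treated libraries below both untreated ones and a fold of 0.723 (deposited log2 fold change -0.40, SE 0.13, DESeq2 q = 0.0225). At 8 h it was at 3015 and 3048 against 2630 and 2019 (fold 0.767, DESeq2 q = 0.172). The calls of Atf6 and Map2k1 were lost when the z values were centred and scaled to their own spread (adjusted p = 0.163 for both) and in limma, which called no gene (limma adjusted p = 0.974 for both). The limma estimates were close to the ratios above, at 0.50 for Atf6 (95% interval 0.08 to 0.91) and -0.47 for Map2k1 (-0.80 to -0.14). Crtc2, a CREB coactivator, had the lowest p of the list at 8 h, at 773 and 698 against 464 and 539 (DESeq2 q = 0.172).

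Of 28 AP-1 target genes measured at each time, 0 were called at 4 h and 0 at 8 h, and 0 and 4 had an unadjusted p below 0.05, the latter near the 11.8% of all genes at 8 h. The lowest p was that of Ccn1, a matricellular protein gene, at 4 h (deposited log2 fold change 0.06, SE 0.04, DESeq2 q = 0.554) and that of Vegfa, the endothelial growth factor gene, at 8 h, where it was at 559 and 613 against 844 and 767 (DESeq2 q = 0.244). Of 22 genes for transcript decay and turnover of AP-1 proteins, 0 were called at 4 h and 0 at 8 h, and 1 and 2 had an unadjusted p below 0.05, against 10.2% and 11.8% of all genes. They were led by Fbxw7, a ubiquitin ligase subunit that targets JUN, at 4 h (532 and 567 against 734 and 828, DESeq2 q = 0.218) and by Khsrp, which binds AU-rich elements and speeds decay, at 8 h (653 and 693 against 388 and 518, DESeq2 q = 0.249). The median z of the AP-1 genes was -0.37 at 4 h and -0.49 at 8 h, beside -0.0096 and 0.0072 for all genes with means of 10 or more. The median z of the other lists lay between -0.25 and 0.17 at 4 h and between -0.49 and 0.59 at 8 h.

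**Figure D4:**
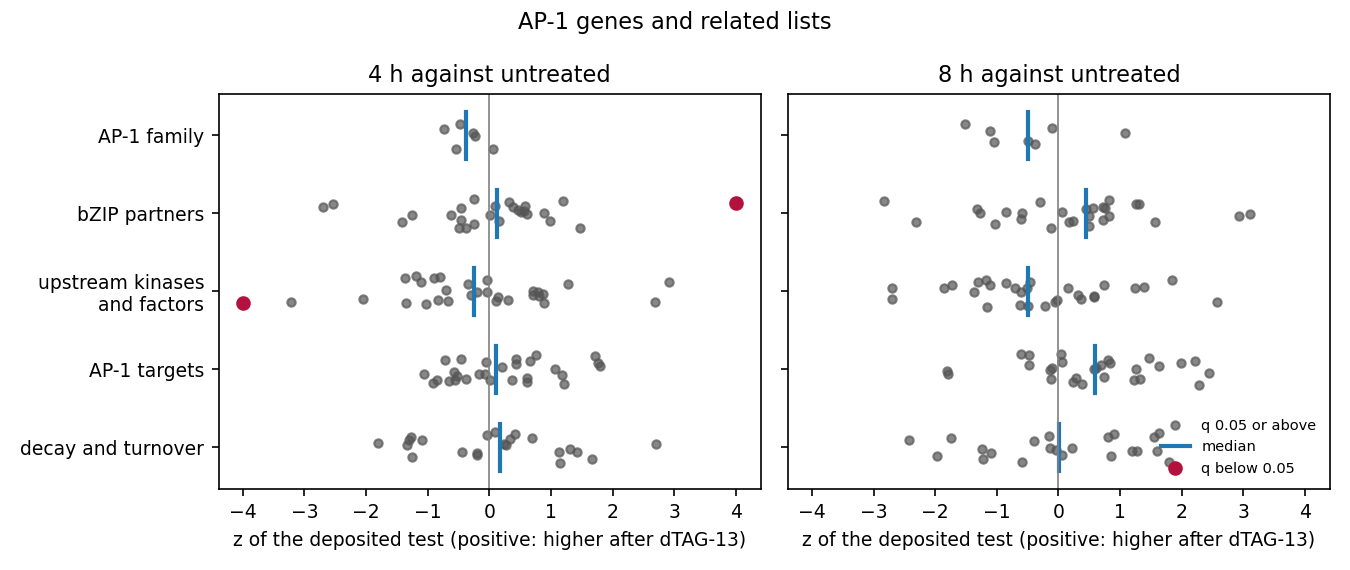
z of the deposited test (horizontal axis, positive where labelled RNA was higher after dTAG-13) for the AP-1 genes and 4 related lists at 4 h (left) and 8 h (right), 1 point per gene with a mean of at least 10. Blue lines are list medians. The 2 red points, with q below 0.05, are Atf6 (0.0222) and Map2k1 (0.0225), both at 4 h.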

How the data were processed

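Labelled RNA was sequenced from 6 samples. According to the methods, reads were trimmed with Trim Galore, aligned to mm10 with STAR and assigned to GENCODE genes with featureCounts, counts were scaled with ERCC spike-ins and compared with DESeq2, whose version was not given in the sources used here. The library kit is a stranded total RNA kit per the labels but a 3′ mRNA kit in the methods, which was not settled. The deposited signal column is the mean over 4 libraries of numbers divided by the authors' size factors. In this scaling the median deposited log2 fold change of genes with means of at least 100 was -0.00011 at 4 h and -9.14e-05 at 8 h. These fold changes are shrunken, so a median near 0 does not show whether the spike-in scaling kept a shift shared by all genes. The values are read here as relative to the other genes, and such a shift may not show in them. The deposited log2 fold changes are shrunken and stand with their errors. The deposited p-value and q-value columns give the main test, with a gene called at q below 0.05. These tables hold comparisons only, so the test of the authors is used as deposited, and its separate lists of called genes were not used.

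From the 15 deposited digits, the whole numbers behind each mean were sought jointly in both tables, which share the untreated pair. Of 23783 genes with a mean above 0, 23650 had a single solution, including all 23531 with means under 10000. On simulated data 2998 of 3000 genes were recovered. Of genes low in both tables, 4353 of 4353 had equal numbers in the shared pair and at most 46.5% in any other. The numbers are not treated as counts of reads. They were divided by the recovered size factors of each table, and limma 3.58.1 (R 4.3.3, trend, log2 of value + 1, median-ratio size factors over 6 libraries, means of at least 10) was added after the data were seen. An exact permutation test of 2 against 2 samples cannot pass the threshold and was not run. Python 3.11.15, numpy 2.4.6 and scipy 1.17.1 were used. Overlaps came from GENCODE M21, another release than the one the methods name (M25).

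The members and lists were chosen with earlier results of these data known. Named were all members, each list gene with q below 0.05 or the lowest p of its list and time, genes at list extremes, and the 3 genes most like Fos and Jun among those with means of at least 1000. Where a symbol had more than 1 row, the row with the highest mean was used. Alternatives covered the filter, the threshold, an empirical null, the scaling and each library left out.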

Additional observations from a re-analysis of the deposited data

How the results depend on the processing

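The counts of called AP-1 genes were 0 in 30 of 30 alternative settings: no filter, means of at least 100, q below 0.10, an empirical null, a halved variance for 8 h against 4 h, and limma on all libraries and with each left out. Over all genes limma called 0 at each comparison, with 598, 698 and 595 genes at an unadjusted p below 0.05, and the halved variance called 48 genes. Where limma called no gene, a count of 0 members was fixed. The share called over all genes in the other settings is not given here. With so few members, the 30 counts are no sign of stability. Of 83 recomputed log2 ratios, 79 moved by less than the spread between libraries. With 2 libraries per group, leaving 1 out can hardly move a ratio by more than this spread. For the libraries left out, the 79 are therefore no sign of stability. The 4 others, each with 1 library left out, were -0.31 for Fos, -1.66 for Fosb, 0.19 for Jun and 0.39 for Atf3, all at 4 h. Leaving out 1 library turned the sign of 9 of 14 ratios, none of them called. Those of Fos, Jun and Atf3 at 8 h and of Junb at 4 h kept their sign. So did that of Jund at 4 h wherever it could be formed. Without library A of the 4 h pair it could not, since library B was at 0. At 8 h the ratios with 1 library left out ran from -0.27 to -0.15 for Fos, from -1.03 to -0.20 for Jun and from -0.72 to -0.07 for Atf3. No paired analysis was possible because neither the deposited tables nor the recovered libraries carry the sample numbers. The limma intervals were widest for Fosb, and Jund and Fosl1 were not fitted there.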

Other observations

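The genes with means of at least 1000 whose log2 normalised values followed Fos most closely over the 6 libraries were Egln1 (Pearson r = 0.99), Fez2 (0.98) and Mettl9 (0.97), and those that followed Jun were Gdi2 (0.98), Sf3b6 (0.98) and Ptgis (0.97). They are the top of 3044 genes over 6 points that share libraries and depth, and they are given as a description. The spread of Jun over the libraries was 1.30 on the log2 scale, against 0.25 for Gdi2.

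Of the whole numbers from 1 to 100, 36 were never taken in library A of the 4 h pair, 13 in library A and 32 in library B of the 8 h pair and 5 in untreated library B, while 0 were missing in untreated library A and in library B of the 4 h pair.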
